A study of Mus musculus with 2 samples.

Results

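The cells described here are the 209 fibroblasts of mouse skin labelled as PBS-injected in which no molecule of Dpp4 was counted. They were taken from the PBS-labelled single-cell library by a fixed rule on unique molecular identifiers (UMIs, tags that count single RNA molecules). A barcode needed 500 genes and 1000 UMIs or more, with mitochondrial UMIs at 10% or less. Col1a1, Col1a2, Col3a1 and Dcn together had to reach 0.3% of its UMIs and outnumber Krt5, Krt14, Krt1 and Krt10. Of 10456 deposited barcodes 5932 were retained, 439 passed the collagen part of the rule, and 209 of those held 0 UMIs of Dpp4. These 209 were 3.52% of the retained barcodes (exact Clopper-Pearson 95% interval 3.07 to 4.02%) and 47.6% of the fibroblasts (42.9 to 52.4%). The other 230 fibroblasts, with at least 1 UMI of Dpp4, came from the same library and serve as the comparison.

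Dermal fibroblasts make the collagen, proteoglycan and elastic fibre scaffold of the skin and send growth factors and Wnt modulators to the hair follicle. DPP4, also known as CD26, is a surface peptidase that removes dipeptides from chemokines, peptide hormones and growth factors. In mouse skin it is known as a marker of fibroblast lineages, including the Pi16-expressing cells of the deep fascia and vessel sheaths. Separate gene lists are used below for papillary fibroblasts, which lie under the epidermis, and for adipocyte precursors.

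The study injected C57Bl6 mice of 8 weeks, male and female by the labels, in the skin with 100 ng of the DPP4 inhibitor sitagliptin in 100 µl PBS, or with PBS alone. A time of 48 h stands beside the processing of the skin, and no genotype or transgene is named. Each treatment is 1 Chromium library, with no statement of how many animals it pools, so no value below has a replicate check and no test between conditions was possible. Intervals are 95% intervals that cover counting error only. The files of each library carry the initial of the other treatment in their names, so which treatment each library received is not certain. The libraries are therefore called PBS-labelled and sitagliptin-labelled.

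The same rule found 4 fibroblasts without and 1 with Dpp4 among 18380 retained barcodes of the sitagliptin-labelled library, a share without Dpp4 of 0.0218% (0.00593 to 0.0557%). The cells described here are therefore those of the PBS-labelled library. In all, 75 barcode sequences occurred in both libraries, among them 1 of the 209 cells and 3 of the 230. The doublet caller Scrublet marked 2 of the 5932 barcodes, a number too low to rely on. No barcode was removed for it, and 19 of the 209 and 15 of the 230 stood among the 8% of barcodes with the highest scores. Xist without a Y-linked transcript was counted in 189 of the 209 cells, neither in 20, and a Y-linked transcript in 0. Over the library, 4 of 5932 barcodes held a Y-linked transcript and 5501 held Xist, whereas the labels give both sexes.

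Cells without Dpp4 were the more shallowly read ones. They had a median of 3984 UMIs (1090 to 15501) and 1785 genes, against 6422.5 UMIs and 2537.5 genes in the cells with Dpp4. Among fibroblasts with 1000 to under 2000 UMIs, 83.7% (70.3 to 92.7%) had no Dpp4, and the share was lower in each deeper bin, down to 23.7% (15.7 to 33.4%) at 8000 UMIs and over. Dpp4 (ENSMUSG00000035000, mm10 chromosome 2, 62330073 to 62412231, minus strand) was thin even where found, since 103 of the 230 cells with it held a single UMI and the highest count was 11. Summed over those 230 cells it reached 368 CPM (a gene's UMIs over all UMIs of the group, in the usual scaling). Keratinocytes and macrophages of the same library, chosen by their own markers, had 8.03 and 3.76 CPM. The 230 cells were chosen for holding Dpp4, which raises their level by the rule itself, so these levels are not a like comparison of cell types. With so few UMIs per cell, a cell with 0 UMIs may still express Dpp4. Mitochondrial UMIs made up a median of 4.66% without and 3.55% with Dpp4, and the part of depth and RNA quality in the differences given below was not tested apart from the values at matched depth.

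**Figure D1:**
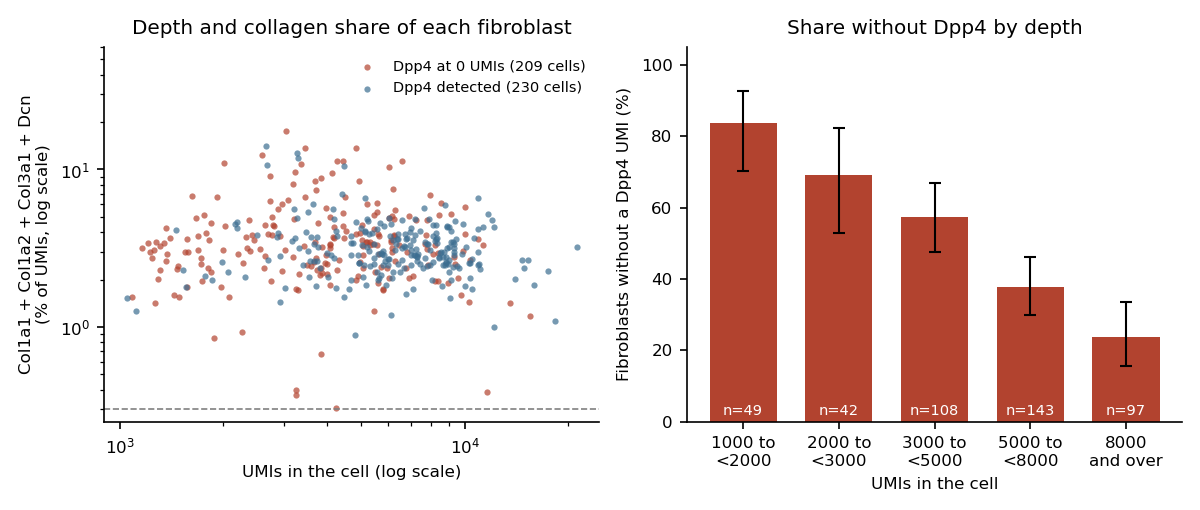
Left, each point is 1 fibroblast of the PBS-labelled library, with its UMIs (x, log scale) and the share of UMIs from the 4 genes of the rule (y, log scale, dashed line at 0.3%); right, bars give the percentage of fibroblasts without a Dpp4 UMI per depth bin, error bars are exact 95% intervals and n is the number of cells. The share is 83.7% in the shallowest bin and 23.7% in the deepest.

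At the edges of the rule, 4 of the 209 cells had the collagen genes at 0.307 to 0.399% of UMIs, and 2 of these 4 had more UMIs of macrophage markers than of the rule's genes. Just outside it, 2 barcodes without Dpp4 lay at 0.101 to 0.175%. A further 23 barcodes without Dpp4 were past 0.3% but held as many or more keratin UMIs. The median of the 209 cells was 3.30% and the highest 17.7%, so most were far from the limit.

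Markers that the rule did not use fit the fibroblast label. All 15 further fibroblast genes were detected, and their summed share had a median of 2.05% of UMIs per cell. Pdgfra, the receptor for PDGF-A that marks fibroblasts, was at 655 CPM without and 635 CPM with Dpp4, and at 2.32 CPM in keratinocytes. It was counted in 77.5% of the cells without Dpp4. After thinning each cell to 2000 UMIs, Pdgfra was counted in 63.1% of these cells, 62.2% of those with Dpp4 and 0.395% of keratinocytes. Lum, the proteoglycan lumican, was at 1153 CPM against 4.72 CPM in keratinocytes, whose median depth was 8975 UMIs.

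Some markers of other cell types were at 0 in all 209 cells. These were Rgs5, Higd1b and Mcam of pericytes, Emcn and Tie1 of endothelium, Sox10 and Cdh19 of Schwann cells, Cd3e, Cd3d, Cd3g and Trac of T cells, Pax7 and Myod1 of muscle precursors, and the 5 mast cell genes. Other genes of the same lists were counted, in 8 of 10 cases for endothelium, 7 of 10 for pericytes, 7 of 10 for muscle, 4 of 9 for Schwann cells and 3 of 9 for lymphocytes. Their sums were at 0 in 147, 179, 159, 151 and 203 of the 209 cells, and at most 0.307, 0.111, 0.0638, 0.104 and 0.0509% of a cell's UMIs. Keratinocyte and macrophage transcripts were more frequent. The 12 keratinocyte markers summed to a median of 0.269% of a cell's UMIs without Dpp4 (highest 2.82%) and 0.237% with it (highest 3.84%), and 21 cells in each group had at least 1%. The 13 macrophage markers summed to a median of 0.0200% (highest 2.98%) without and 0.0172% (highest 2.24%) with Dpp4, and 5 and 6 cells had at least 1%. The part of such transcripts in each difference was not tested, and values without the affected cells are given where they differ.

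The 439 fibroblasts were grouped into 10 clusters without using Dpp4, and the cells without Dpp4 occurred in every one. Clusters are numbered here and described by leading genes seen in many of their cells, and since they were drawn from the same counts, gene levels between them are descriptions. Cells without Dpp4 made up 16.1% (9.09 to 25.5%) of cluster 0, whose leading genes include the interferon-induced Ifit1 and Usp18 and the ligand gene Wnt2. They made up 94.1% (71.3 to 99.9%) of cluster 8, led by Gdf10, a secreted factor of the BMP family. Cluster 2 with Myoc and Cdh13 had 72.7% (59.0 to 83.9%), cluster 3 with Angpt4 and Wnt5b 70.8% (55.9 to 83.0%), and cluster 6 with Cdh4 and Oxtr 75% (56.6 to 88.5%). These last 4 clusters together held 114 of the 209 cells (54.5%) and 38 of the 230 with Dpp4 (16.5%).

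The summed Dpp4 level over all cells of a cluster is moved less by a cell's own depth. It is drawn from the same Dpp4 counts as the shares, so a broadly like order is largely built in and is no separate support. It was 456 CPM (404 to 513) in cluster 0 and 433 CPM (305 to 596) in cluster 7. In clusters 2, 3 and 6 it was 95.7, 101 and 96.7 CPM, with intervals that overlap one another, and in cluster 8 it was 17.2 CPM (0.435 to 95.7), from a single UMI in 17 cells. Clusters 1, 4, 5 and 9 lay between, from 160 to 196 CPM, also with overlapping intervals. Thinning, which also left out the cells with fewer than 2000 UMIs, moved the shares without Dpp4. At 2000 UMIs per cell the share without Dpp4 was 42.2% in cluster 0 and 25% (7.27 to 52.4%, 16 cells) in the shallow cluster 7, and between 66.7 and 91.7% in the other 8. In cluster 7 it had been 38.7% of 31 cells with all UMIs, and a share at 0 UMIs can fall only through the cells left out. Clusters 1, 4 and 5, at 34.4 to 46.7% with all UMIs, were then at 72.1 to 78.6%, beside 73.3 to 78.0% in clusters 2, 3 and 6.

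**Figure D2:**
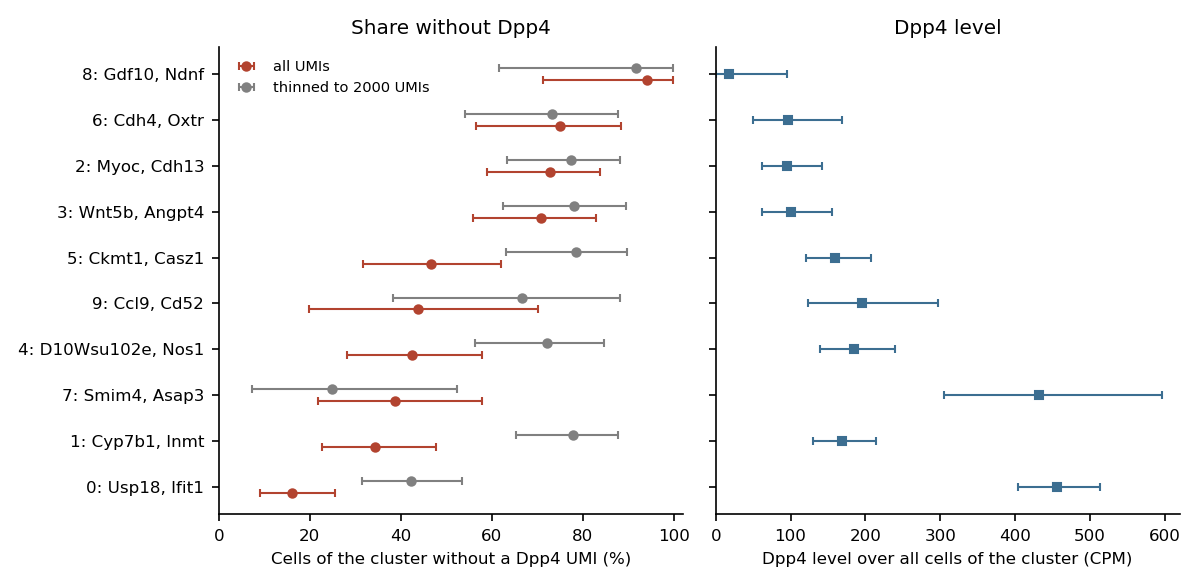
For the 10 fibroblast clusters (number and a pair of leading genes), the percentage of cells without a Dpp4 UMI with all UMIs (red) and after thinning to 2000 UMIs (grey), and on the right the Dpp4 level in CPM summed over the cluster; bars are exact 95% counting intervals. Cells with fewer than 2000 UMIs are not in the grey values. Cluster 0 has the lowest share without Dpp4 at full depth, 16.1%, and the highest Dpp4 level, 456 CPM, and cluster 8 has the highest share, 94.1%.

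Levels within the 209 cells differed widely between clusters. The 24 cells of cluster 6 had the highest levels of the rule's own genes, with Col1a1 at 21788 CPM against 2817 to 10205 CPM in the other 9 clusters, and the rule's genes were a median of 9.27% of UMIs over that whole cluster. Other collagens did not follow as a group, with 5 of 12 at least 1.5-fold higher and 5 lower over the cluster than in the other fibroblasts, and Col6a1 at 719 CPM in its cells without Dpp4. Oxtr, the oxytocin receptor, was at 322 CPM in these 24 cells. They also held most of Cyp26b1, which encodes an enzyme that breaks down retinoic acid, at 1697 CPM against at most 125 CPM elsewhere. Cyp2f2, a cytochrome P450 gene, was at 1793 CPM in cluster 6 and at most 333 CPM in the others. The complement gene C3, by contrast, was at 64.4 CPM there and at 918 to 4193 CPM in the other clusters.

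The 34 cells of cluster 3 were high in Igf1 and in several matrix genes. Small proteoglycans were at least 1.5-fold higher than in the other fibroblasts for 7 of 9 genes in cluster 3, and also for 7 of 9 in cluster 6 and 5 of 9 in cluster 8. The share of all genes so far apart is not given for clusters, so these counts have no background to be read against. Igf1, the insulin-like growth factor made by dermal cells, was at 1834 CPM in them and at 116 to 749 CPM in the other clusters. Cilp, cartilage intermediate layer protein, an extracellular matrix glycoprotein, was at 2414 CPM in cluster 3, 1847 CPM in cluster 6 and 571 CPM in cluster 2, and at or under 182 CPM in the other 7. Bgn, the proteoglycan biglycan, was highest in cluster 3 at 2093 CPM (252 to 1606 CPM elsewhere). Sfrp2, a secreted Wnt modulator, was at 643 CPM in cluster 3 and at most 119 CPM elsewhere.

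The 16 cells of cluster 8 had their own set of levels. Gdf10 was at 517 CPM there and at most 21.0 CPM elsewhere. C3 reached 4193 CPM, Cxcl12, the chemokine that binds CXCR4, 1517 CPM, and Igfbp4, an IGF binding protein, 1124 CPM, each the highest of the 10 clusters. Mgp, matrix Gla protein, an inhibitor of calcification, was at 714 CPM in cluster 8, 384 CPM in cluster 3 and at most 116 CPM elsewhere. Pi16, the peptidase inhibitor gene that marks fascia and vessel-sheath fibroblasts, rested on 2 UMIs in cluster 8 (35.7 CPM), against 203 to 1767 CPM in the other clusters.

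Genes of other cell types were among the leading genes of several clusters. In cluster 0 these were the muscle genes Acta1, Tnnc2 and Mylpf, and 1 cell held 54 of the 82 UMIs of Acta1. Ccl21a of the endothelium list led cluster 4 from 16 UMIs in 1 cell. Cluster 7 had Sprr1b and Hal, which were higher in keratinocytes, on 5 UMIs each. Cluster 5 was led by proliferation and keratinocyte genes (Mki67, Casz1, Ckmt1), and its 21 cells without Dpp4 had Krt14 at 3078 CPM, against 327 to 1052 CPM elsewhere. Cluster 9 was led by macrophage genes (Cd52, Ccl9), and its 7 cells without Dpp4 had Lyz2 at 2033 CPM. Clusters 5 and 9 held 21 and 7 of the 209 cells, and whether barcodes of these clusters hold more than 1 cell was not tested.

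**Figure D3:**
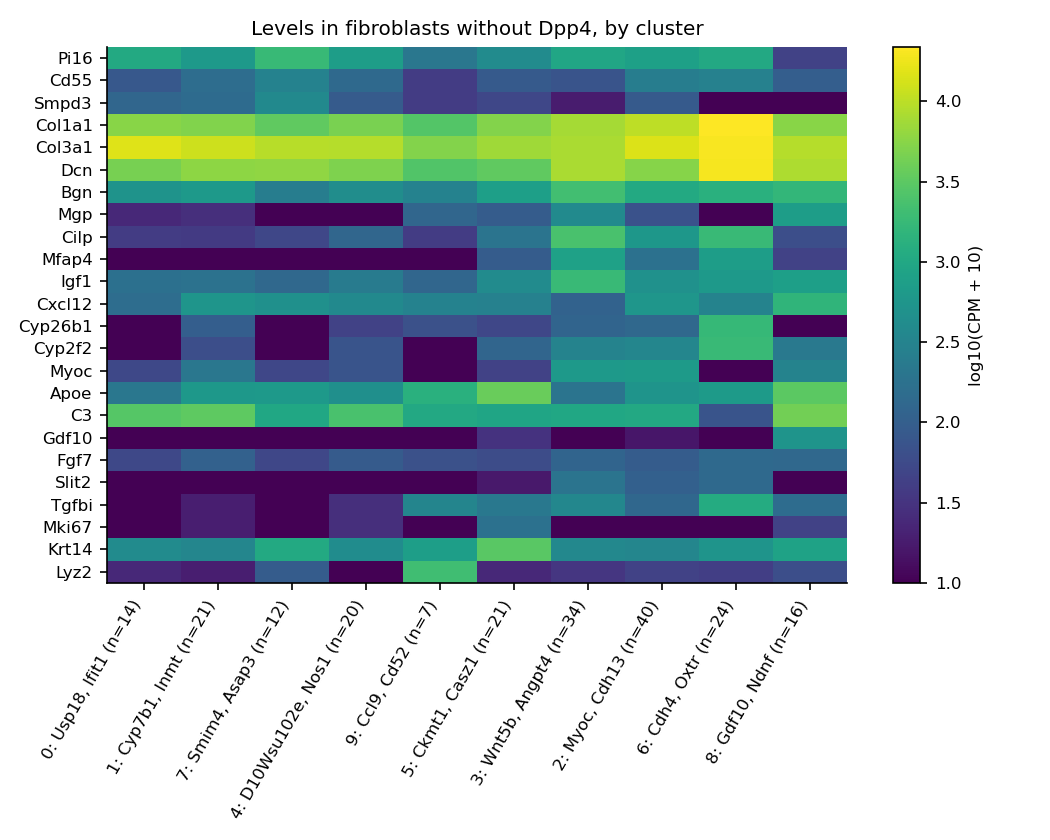
Levels of 24 genes in the 209 fibroblasts without Dpp4, summed per cluster and coloured by log10(CPM + 10), with clusters ordered by their share without Dpp4 and n the number of cells without Dpp4. Col1a1 and Cyp26b1 peak in cluster 6, Igf1, Bgn and Cilp in cluster 3, and Gdf10 in cluster 8.

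The 209 cells were then compared with the 230 cells with Dpp4, as ratios of CPM from summed UMIs (936845 and 1550696 in all). A gene was compared if it reached 50 CPM in either group and had a total of 20 UMIs or more, which left 3478 genes. Of these, 107 (3.08%) were higher without Dpp4 by a factor of 1.5 or more and 151 (4.34%) lower by as much. At 2-fold the counts were 30 (0.863%) and 27 (0.776%). Higher genes included the matrix genes Cilp, Mgp and Mfap4, and lower ones the lipid enzyme gene Smpd3 and the interferon-induced Rsad2. In cells with at least 5000 UMIs, 77 and 163 of them, 81 of the 107 and 114 of the 151 were still at least 1.5-fold apart in the same direction. When the cells with Dpp4 were weighted to the cluster makeup of those without, 38 of the 107 and 40 of the 151 were. In that weighting the 1 cell with Dpp4 in cluster 8 stands against 16 cells without it, which limits every value at equal cluster makeup.

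The genes named as higher are among the 12 with the largest ratios. Being picked for their size, these ratios tend to be too large, and the counting intervals do not cover that choice. Slit2, Nr2f2 and Mgp reached the minimum of 50 CPM only in the cells without Dpp4. Slit2 (mm10 chromosome 5, 47983138 to 48307733), which encodes a guidance ligand for Robo receptors, had the largest, at 55.5 CPM without and 7.09 CPM with Dpp4, a ratio of 7.82 (4.03 to 16.6). Its 52 UMIs lay in 36 cells, none with more than 4, and in clusters 2, 3 and 6 for the most part. Cilp (mm10 chromosome 9, 65265180 to 65280605) was at 667 CPM against 176 CPM, a ratio of 3.79 (3.28 to 4.38). It was at 0 in 119 of the 209 cells and reached 7082 CPM in the highest. Thinned to 2000 UMIs, 40.5% of the cells without and 11.7% of those with Dpp4 had a UMI of Cilp, against 0.213% of keratinocytes.

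Mfap4, a microfibril-associated glycoprotein, was at 227 CPM against 57.4 CPM, a ratio of 3.96 (3.08 to 5.13). Mgp was at 126 CPM against 31.0 CPM, a ratio of 4.07 (2.89 to 5.82), and a single cell held 29 of its 118 UMIs. Cyp26b1 was at 229 CPM against 54.8 CPM, a ratio of 4.19 (3.24 to 5.45). Matrix genes and an enzyme of retinoid breakdown thus stood side by side among the highest ratios. Cyp2f2 had a ratio of 3.32 (2.72 to 4.06), Tgfbi, an adhesive matrix protein gene, 3.08 (2.45 to 3.89), and Myoc, the gene of myocilin, 2.75 (2.23 to 3.41). The chemokine gene Cxcl14 had a ratio of 2.74 (2.17 to 3.47), but keratinocytes held it at 287 CPM, above the 208 CPM of the cells without Dpp4. The nuclear receptor gene Nr2f2 had a ratio of 4.51 (2.58 to 8.22) from 49 UMIs in 20 cells.

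For 1 of the named genes a single cell decided much of the value. That cell held 235 of the 341 UMIs of Cst6, a protease inhibitor gene at 1162 CPM in keratinocytes, and its ratio of 4.03 went to 1.31 without the cell of each group that held most. Without clusters 5 and 9 it was 1.39. From Slit2 to Cst6, each gene named for its high ratio was at least 1.5-fold apart in the deep cells and after thinning. At equal cluster makeup Slit2 at 2.41, Mgp at 1.63, Nr2f2 at 5.89 and Cst6 at 4.65 were, the last with its 1 high cell. Cilp then had a ratio of 1.37, Mfap4 1.34, Cyp26b1 1.40 and Cyp2f2 0.944.

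**Figure D4:**
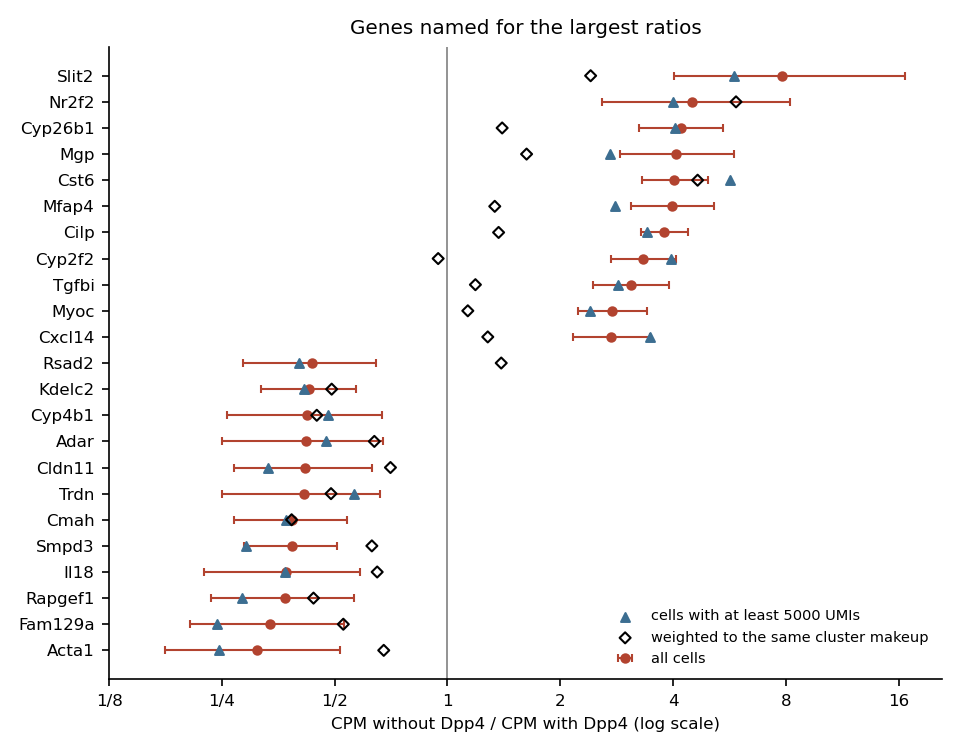
Ratio of CPM without over with Dpp4 (x, log scale) for the genes named each way, with 95% counting intervals for all cells (red), the ratio in cells with at least 5000 UMIs (blue triangles) and the ratio at equal cluster makeup (open diamonds). Most genes higher without Dpp4 move towards 1 at equal makeup, such as Cilp from 3.79 to 1.37, while Cmah runs from 0.370 to 0.421 and Kdelc2 from 0.404 to 0.491 over the settings.

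The 12 genes named as lower were likewise picked for their ratios, and only Kdelc2 and Smpd3 among them reached 50 CPM in both groups. Among the 12, Cmah, Kdelc2 and Rapgef1 moved least with the setting. Cmah, which encodes the enzyme that hydroxylates sialic acid, was at 45.9 CPM without and 119 CPM with Dpp4, a ratio of 0.385 (0.269 to 0.539), and ran from 0.370 to 0.421 over the settings. Kdelc2, a glucosyltransferase gene of the endoplasmic reticulum, was at 65.1 CPM against 152 CPM, a ratio of 0.428 (0.317 to 0.569), with a range of 0.404 to 0.491. Rapgef1, an exchange factor for the small GTPase Rap1, had a ratio of 0.369 (0.234 to 0.564), with a range of 0.282 to 0.439. These 3 genes were lower without Dpp4 at equal cluster makeup almost as much as in the plain comparison.

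Smpd3 (mm10 chromosome 8, 106252548 to 106337988), the neutral sphingomyelinase gene, was at 66.2 CPM against 172 CPM, a ratio of 0.384 (0.287 to 0.508). Thinned to 2000 UMIs it was counted in 6.55% of the cells without and 26.1% of those with Dpp4, against 0.669% of keratinocytes (16.3% and 47.0% with all UMIs). Its ratio was 0.289 in the deep cells and 0.628 at equal makeup. Fam129a had a ratio of 0.337 (0.205 to 0.531), the cytokine gene Il18 0.370 (0.224 to 0.585), the junction gene Cldn11 0.417 (0.270 to 0.627), and the RNA-editing enzyme gene Adar 0.419 (0.250 to 0.674). The ratios of Trdn and Cyp4b1 were 0.414 and 0.423. Rsad2, the antiviral gene viperin, had a ratio of 0.434 (0.285 to 0.645), which turned to 1.39 at equal cluster makeup. Acta1, skeletal muscle actin, had the smallest ratio, 0.310, but 1 cell with Dpp4 held 54 of its 96 UMIs in that group.

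Gene lists are given as the number of members with at least 20 UMIs that were 1.5-fold apart and as the median log2 ratio of CPM + 1. Of all 9250 genes with that many UMIs, 878 (9.49%) were at least 1.5-fold higher and 837 (9.05%) lower, with a median log2 ratio of -0.01. At 2-fold these were 254 (2.75%) and 244 (2.64%). The 1.5-fold shares are the background for the list counts of the plain comparison that follow. No like share is given for list counts between clusters, in the deep cells or in other settings, so a change in those counts is not read as a result about a list. With the 50 CPM minimum, 5.25% of genes were higher and 5.75% lower in the deep cells. At equal cluster makeup these shares were 3.38% and 5.96%, beside 3.08% and 4.34% in the plain comparison. Most measured genes of small proteoglycans, adipocyte precursors and papillary fibroblasts were higher, and most of fascia fibroblasts and the interferon response lower.

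Small leucine-rich proteoglycans, which bind collagen fibrils and growth factors, had 6 of 9 measured members higher, none lower and a median of 0.70. Bgn was at 994 CPM without and 421 CPM with Dpp4, a ratio of 2.36 (2.13 to 2.61), and it was counted after thinning in 75% and 34.2% of cells, against 1.34% of keratinocytes. Podn had a ratio of 2.23 (1.73 to 2.87), Ecm2 2.72 (1.83 to 4.09), Aspn 1.63 and Prelp 1.55. Ogn, osteoglycin, was on the other side at 0.761 (0.704 to 0.823), and Dcn belongs to the rule. In the deep cells 3 of the 9 were higher, and at equal cluster makeup none was 1.5-fold apart and the median was 0.03.

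Most measured genes of fibrillar collagens and of collagen processing differed little. Of 12 other measured collagens 2 were 1.5-fold higher and none lower, with a median of 0.36. The higher ones were Col12a1 at 1.51 and Col7a1, on 16 and 7 UMIs. Of 7 measured fibrillar collagens 1 was 1.5-fold higher, Col27a1, with 20 UMIs in the 209 cells. Col5a1 had a ratio of 1.14 (1.04 to 1.24) and Col5a2 1.13 (1.03 to 1.23), and Col1a1, which is in the rule, 1.42. None of the 18 measured genes for collagen processing and crosslinking was 1.5-fold apart. Serpinh1, the collagen chaperone, had a ratio of 1.22 (1.16 to 1.28) and Loxl1, a crosslinking oxidase, 0.790 (0.723 to 0.862). Of 16 elastic fibre genes 4 were higher, with Mfap4, Ltbp4 at 1.82 (1.53 to 2.18), Fbln5 and Ltbp2, while Mfap5 was at 0.681 (0.594 to 0.778). In the deep cells 2 of the 16 were higher and 1 lower. Among proteases and inhibitors 3 of 18 were higher and 1 lower. Timp3, the matrix-bound metalloproteinase inhibitor, had a ratio of 1.54 (1.46 to 1.62), and the collagen-degrading cathepsin gene Ctsk 1.72 (1.43 to 2.07), while Plau was at 0.637. At equal cluster makeup Timp3 had a ratio of 0.982, Ctsk 1.02 and Plau 1.10, and the list had 1 higher and 1 lower.

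Markers of fascia or vessel-sheath fibroblasts were mostly lower without Dpp4, with 8 of 13 measured members at least 1.5-fold lower, none higher and a median of -0.78. Dpp4 itself is known from such cells and is not in the list. Pi16 was at 724 CPM without and 1400 CPM with Dpp4, a ratio of 0.517 (0.474 to 0.564). Over the 209 cells Pi16 was at 0 UMIs in 72, had a median of 477 CPM and reached 7429 CPM, so its counted level ranged widely among them. Anxa3, an annexin gene, had a ratio of 0.539 (0.483 to 0.601), Cd55, a complement regulator, 0.580 (0.473 to 0.708), and Sema3c, a semaphorin, 0.608 (0.495 to 0.744). Wnt2 had a ratio of 0.224 (0.0926 to 0.472) on 8 and 59 UMIs. Cd34, a sialomucin of stem and stromal cells, had a ratio of 0.924. In the deep cells 9 of the 13 were lower, and at equal cluster makeup 3 were, with a median of -0.38.

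Interferon-response genes were lower in 9 of 17, higher in none, with a median of -0.60. Irf7, the transcription factor that amplifies type I interferon, was at 77.9 CPM against 166 CPM, a ratio of 0.468 (0.356 to 0.609). Ifit1 had a ratio of 0.502 (0.386 to 0.646) and Isg15, a ubiquitin-like modifier, 0.604 (0.505 to 0.721). These genes were concentrated in cluster 0, where 14 of the 17 were 1.5-fold higher than in the other fibroblasts and which held 14 of the 209 cells and 73 of the 230. At equal cluster makeup 1 of the 17 was lower and 1 higher, with a median of -0.11, and Ifit1 had a ratio of 1.21.

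Of the papillary list 4 of 6 measured members were higher and none lower, with a median of 0.69, but all were at low levels. In the deep cells 2 of the 6 were higher, with a median of 0.32. Sparcl1, a matricellular gene, was at 49.1 CPM against 14.2 CPM, a ratio of 3.46 (2.04 to 6.04), and Ntn1, the guidance cue netrin, at 60.8 CPM against 34.8 CPM, a ratio of 1.75 (1.18 to 2.58). The other 8 papillary genes had under 20 UMIs. Adipocyte-precursor markers were higher in 7 of 9 and lower in none, with a median of 0.66. Clec11a, a secreted lectin, had a ratio of 4.41 (2.39 to 8.60) on 40 and 15 UMIs, Icam1, an adhesion receptor, 2.09 (1.47 to 2.97), and Apoe, the lipid carrier, 1.53 (1.41 to 1.67). Apoe was at 4019 CPM in keratinocytes and 5488 CPM in macrophages, and their part in its ratio was not tested. A single cell without Dpp4 held 204 of the 1069 Apoe UMIs of its group. Without the cell of each group that held most, Apoe had a ratio of 1.41 and Bmper, another of the 7, 1.39. Without cluster 8, 4 of the 9 were higher, and at equal cluster makeup 4 were higher and 1 lower. Of 12 measured reticular genes only Mgp and Cilp were higher and none was lower, and the abundant Gpx3 and Gsn had ratios of 0.987 and 0.995.

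Growth factors known from the dermis were split, with 3 of 13 higher and 5 lower. Igf1 was at 571 CPM without and 330.2 CPM with Dpp4, a ratio of 1.73 (1.53 to 1.96). Over the 209 cells it was at 0 in 82, had a median of 254 CPM and reached 4908 CPM. Gas6, a ligand of the Axl receptor, had a ratio of 1.66 (1.56 to 1.78). At equal cluster makeup Igf1 had a ratio of 0.969 and Gas6 1.14, and the list had 2 higher and 2 lower. Fgf2 was at 40.6 CPM against 80.6 CPM, a ratio of 0.503 (0.340 to 0.729), and Tgfb2 had a ratio of 0.594 (0.461 to 0.760). Fgf7, keratinocyte growth factor, differed little, with a ratio of 1.07 (0.796 to 1.43). Fgf10, Fgf18 and Tgfb3 were also past the 1.5-fold limit on 6 or 7 UMIs each in the 209 cells, with intervals that reach above 1.

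Of 19 measured Wnt and BMP genes 8 were higher and 2 lower. Sfrp1, which binds Wnt ligands, was at 174 CPM against 96.1 CPM, a ratio of 1.81 (1.44 to 2.28), and Wnt5a, a ligand of the non-canonical branch, had 1.87 (1.18 to 2.98). Fst, follistatin, which binds activin, had a ratio of 1.54 (1.22 to 1.94). Gdf10 had a ratio of 6.07 (2.84 to 14.4), and 0.781 without cluster 8. All 35 UMIs of Sfrp5 lay in 2 of the 209 cells, against 0 in the 230, and Grem1 rested on 19 UMIs in 7 cells. On the lower side stood Wnt2 and Sfrp4, which had a ratio of 0.616 (0.545 to 0.695). In the deep cells the list had 7 higher and 6 lower, and at equal cluster makeup 4 and 5, with Sfrp1 at 1.06 and Wnt5a at 1.10.

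IGF binding proteins, which hold and release IGF, were also split. Igfbp7 had a ratio of 1.82 (1.58 to 2.09) and Igfbp3 2.29 (1.70 to 3.11), while Igfbp4 was at 189 CPM against 341 CPM, a ratio of 0.555 (0.465 to 0.659). Igfbp6, the most counted of them, had 0.863 (0.825 to 0.903). Igfbp2 was 1.5-fold higher on 18 UMIs in 4 cells. At equal makeup Igfbp3 and Igfbp4 had ratios of 0.933 and 1.03. Without cluster 6, 2 of the 6 were higher and 3 lower.

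No other measured peptidase of the DPP4 family was 1.5-fold higher in the plain comparison. Prcp, a lysosomal prolyl carboxypeptidase gene, had a ratio of 1.30, which was 1.53 at equal cluster makeup and 1.82 without clusters 5 and 9. Fap, fibroblast activation protein, the nearest relative, was at 74.7 CPM without and 84.5 CPM with Dpp4, a ratio of 0.884 (0.652 to 1.19). Dpp8 had a ratio of 0.768 (0.488 to 1.18), Dpp9 0.870 (0.581 to 1.29) and Dpp7 1.40 (0.757 to 2.57), or 1.57 without the highest doublet scores. Prep, prolyl endopeptidase, was lower at 0.532 (0.294 to 0.919) on 18 and 56 UMIs. Of 6 measured genes for known DPP4 substrates Igf1 alone was 1.5-fold apart in the plain comparison. Weighted to equal cluster makeup, 3 were higher, Ccl2 at 3.04, Ccl7 at 1.52 and Cxcl10 at 1.52, and Igf1 was not. Cxcl12 was at 421 CPM against 289 CPM, a ratio of 1.46 (1.27 to 1.67), and Ccl11, the eosinophil chemokine eotaxin, at 133 CPM against 175 CPM, a ratio of 0.763 (0.613 to 0.947). At equal cluster makeup Fap had a ratio of 1.32 and Ccl11 1.17, on the other side of 1.

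Chemokine and cytokine genes were 3 higher and 3 lower of 15, against 5 and 1 in the deep cells and 7 and 1 at equal cluster makeup. Cxcl13, a B cell chemokine, had a ratio of 0.630 (0.497 to 0.794) and was counted after thinning in 10.7% of the cells without and 18.5% of those with Dpp4, against 0.0608% of keratinocytes (18.2% and 40.9% with all UMIs). Its ratio turned to 1.31 at equal cluster makeup. Ccl8 had a ratio of 0.629 (0.505 to 0.780), and macrophages held it at 1684 CPM. Csf1, the macrophage growth factor, had 0.908 (0.825 to 0.999). Complement genes were 1 higher and 2 lower of 10, and 1 and 0 at equal cluster makeup. C3 was at 1650.2 CPM against 2037 CPM, a ratio of 0.810 (0.762 to 0.861), and C4b had 0.737 (0.670 to 0.811).

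Wound and contractile genes had 6 of 14 higher and 2 lower, on thin counts, and 4 and 4 without cluster 6. Beside Tgfbi the higher ones included Tnc, whose 40 UMIs in the 209 cells all came from 1 cell, Col12a1, Runx1 and Ctgf, and the lower ones Lrrc15 and Cthrc1 with 6 UMIs each. Postn, periostin, had a ratio of 1.19 (1.03 to 1.37) and Thbs2, a thrombospondin, 0.698 (0.646 to 0.753). Acta2 and Tagln, the contractile genes of myofibroblasts, were under 20 UMIs. Dissociation genes, which respond to tissue digestion, had a median of 0.38, with Nr4a1 at 1.71 and Ier3 at 1.54 past the limit among 19, and none lower. With at most 5% mitochondrial UMIs 11 of the 19 were higher, and at equal cluster makeup none was. Glucocorticoid-responsive genes were higher in 3 of 13 (Mt2 at 1.78, Tsc22d3 at 1.66, Ddit4 at 1.52) and lower in none. Cell cycle genes were higher in 4 of 14 and lower in 1, and without barcodes over 2% of other markers 1 was higher and 2 lower, while in the deep cells 8 were higher and 1 lower.

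**Figure D5:**
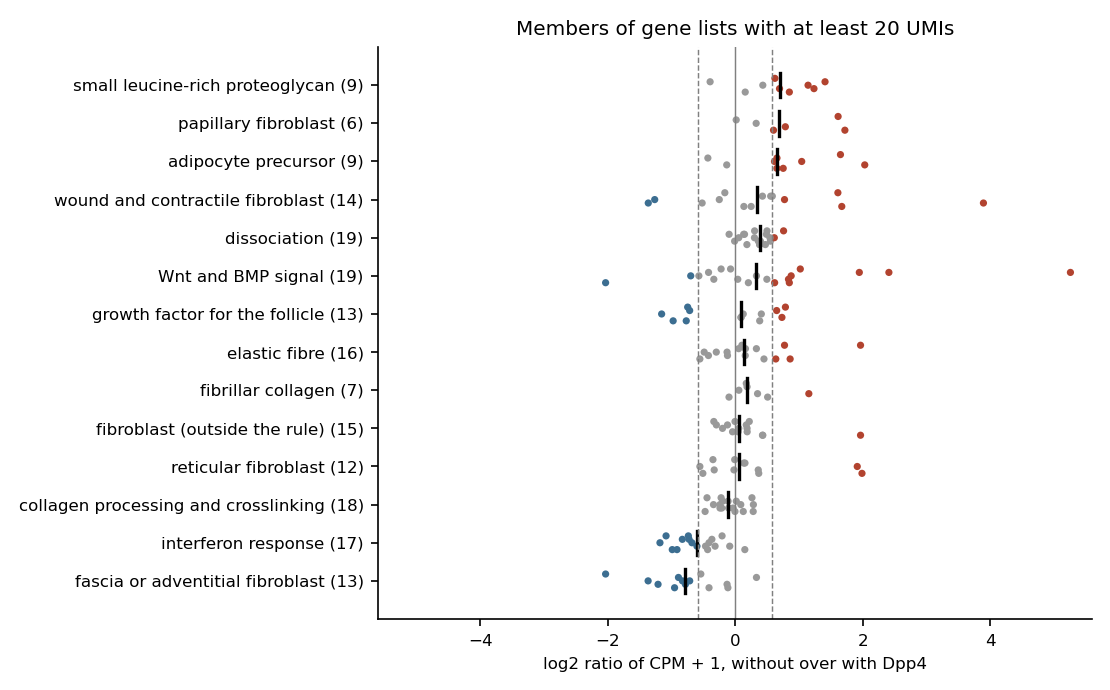
Each point is a gene of a list with at least 20 UMIs, placed by its log2 ratio of CPM + 1 without over with Dpp4, red at or past 1.5-fold higher, blue at or past 1.5-fold lower, and the black bar is the list's median; the number of genes stands in parentheses. Fascia and interferon genes lie mostly below 0, with medians of -0.78 and -0.60, and proteoglycans mostly above, with a median of 0.70.

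Skeletal muscle genes, which fibroblasts do not express, were lower in 6 of 6, with a median of -1.08. One cell with Dpp4 had 1.82% of its UMIs from these genes, against at most 0.0638% in any cell without Dpp4. Without the barcodes that had over 2% of UMIs from other cell types the median was 0.09, and at equal cluster makeup 1 of the 6 was lower. The macrophage list had 1 of 13 members lower and none higher, with a median of -0.32. This turned to 5 higher, 1 lower and a median of 0.54 without clusters 5 and 9, and to 5, 2 and 0.36 without the highest doublet scores, while in the deep cells 9 were lower, 1 higher and the median was -0.69. The keratinocyte list had 3 of 12 higher (Krt17, Epcam and Cdh1) and none lower, with a median of 0.31, against 6 higher in the deep cells and 1 after thinning.

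In the 4 fibroblasts without Dpp4 of the sitagliptin-labelled library, 22230 UMIs were summed, of which Col1a1 had 154, a level of 6928 CPM (5877 to 8112), beside 7924 CPM in the 209 cells. Cilp was at 810 CPM (480 to 1279.7) beside 667 CPM, Bgn at 1979 CPM (1438 to 2657) beside 994 CPM, and Igf1 at 45.0 CPM (1.14 to 251) from 1 UMI beside 571 CPM. With 4 cells in 1 library no comparison of treatments was made for these cells.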

How the data were processed

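Single cells of mouse skin were measured in 1 Chromium library per treatment. Cell Ranger 3.1.0 with mm10 is named in the submitters' processing notes, and the deposited files hold UMI counts per gene and barcode, unfiltered beyond what the authors deposited. From these counts all else was computed with Python 3.11.15, numpy 2.4.6, scipy 1.17.1 and scanpy 1.11.5. Keratinocytes were barcodes with their 4 keratins at 1% of UMIs or more, macrophages those with their markers at 0.3% or more. Fibroblasts were clustered with Leiden at resolution 1 (log of counts scaled to 10000 per cell, 1500 variable genes without Dpp4, 20 components, 15 neighbours, seed 1).

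Summed UMIs gave CPM, with exact Poisson intervals for levels, Clopper-Pearson intervals for shares and conditional binomial intervals for ratios. Equal cluster makeup means that cells with Dpp4 were weighted to the cluster shares, in UMIs, of those without. The 1 cell with Dpp4 in cluster 8 thus took the weight of 16 cells, and the 8 in cluster 6 that of 24. Named genes are the 12 with the largest ratio each way among genes 1.5-fold apart with 50 CPM in either group and 20 UMIs, leaving out mitochondrial, ribosomal, haemoglobin, sex-linked, predicted, dissociation and rule genes and those over 10 times higher in keratinocytes or macrophages than in fibroblasts. Members of 38 gene lists, leading genes of clusters and the 20 most counted genes could also be named. The cells, lists and rules were chosen with earlier results of these data known. Coordinates are from GENCODE vM21 on mm10, which held 30934 of 31053 gene identifiers. The ratios were tested on simulated counts. Alternatives were the collagen share, mitochondrial and depth limits, doublet scores, other cells' markers, scaling, thinning, the CPM minimum, the pseudocount and the clustering resolution. Some genes that the rules would name are not reported here.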

Additional observations from a re-analysis of the deposited data

How the results depend on the processing

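No replicate could be left out, since each treatment is 1 library, so the values below are for cells of 1 library. No paired analysis was possible because no result comes from a test and each treatment has a single library. The rule found 115 cells with at most 5% mitochondrial UMIs and 168 with at least 1000 genes and 2000 UMIs. Genes higher without Dpp4 by 1.5-fold were 107 of 3478 (3.08%) as written. They numbered 196 of 3564 (5.50%) with at most 5% mitochondrial UMIs. With mitochondrial, ribosomal, haemoglobin and keratin genes left out of the total they were 165 of 4200 (3.93%). After thinning to 2000 UMIs they were 359 of 3623 (9.91%), in cells with at least 5000 UMIs 186 of 3545 (5.25%), and with no CPM minimum 878 of 9250 (9.49%). Genes lower numbered 390 (10.8%) after thinning and 837 (9.05%) with no CPM minimum, beside 151 (4.34%) as written. Thinned or fewer cells hold fewer UMIs, and the part of counting error in these counts was not tested. After thinning the share without Dpp4 was 42.2% in cluster 0, 78.0% in cluster 1, 72.1% in cluster 4 and 78.6% in cluster 5. It was 20% in cluster 7 with the higher depth minimum and 100% in cluster 8 with at most 5% mitochondrial UMIs. Among the genes named by their ratio and the list medians at least 1.5-fold from 1, directions turned for the skeletal muscle median (0.088 without barcodes over 2% of other markers) and, at equal cluster makeup, for Cyp2f2 (0.944) and Rsad2 (1.39), and genes of the lists whose ratio crossed 1 at equal makeup include Timp3, Plau, Fap, Ccl11 and Cxcl13, as given above. The cause of these moves was not tested. Of the other values recomputed, 78 counts and shares and 697 medians and ratios stayed within their counting interval or the spread of the list's members, and 56 medians and ratios moved. Over 29 lists and 406 recomputed medians, 29 medians of 11 lists changed sign. Among these the macrophage median of -0.32 ran from -0.69 to 0.54, dermal sheath from -0.49 to 0.38, growth factors from -0.51 to 0.30 and IGF binding proteins from -0.40 to 0.37. At a clustering resolution of 0.5 there were 6 clusters, with 22.6 to 75% of their cells without Dpp4. The omission of clusters, the weighting to equal cluster makeup and the omission of single cells were chosen after seeing the data. Depth limits every statement on cells without Dpp4, since 41 of the 209 held fewer than 2000 UMIs.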

Other observations

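Most listed genes of hair follicle mesenchyme had under 20 UMIs in the fibroblasts. Of 19 dermal papilla genes 5 had at least 20 UMIs in both groups together. Of these 1 was 1.5-fold higher and 1 lower, with a median of 0.42. Ndnf and Hhip of this list were among the leading genes of cluster 8, on 10 and 4 UMIs. The higher one, the prolactin receptor gene Prlr, had a ratio of 2.76 (1.28 to 6.19) from 20 UMIs in 15 cells, and the lower one was Fgf10. Vcan, the proteoglycan versican, known from papilla and dermis, was at 466 CPM without and 349 CPM with Dpp4, a ratio of 1.34 (1.18 to 1.52). Of 11 dermal sheath genes 5 were measured, with 2 higher (1 of them Tnc, from 1 cell), none lower and a median of 0.25, which turned to -0.14 in cells with at least 5000 UMIs. Myl9, a myosin light chain gene of contractile cells, had a ratio of 0.667 (0.512 to 0.862).

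Basement membrane genes differed little. Col4a1 had a ratio of 0.959 (0.885 to 1.04), Col4a2 0.972 (0.865 to 1.09) and Hspg2, the proteoglycan perlecan, 1.05 (0.909 to 1.21). Col15a1 itself was at 405 CPM without and 287 CPM with Dpp4, a ratio of 1.41 (1.23 to 1.62). Inmt, a methyltransferase gene, was on the other side at 0.761 (0.615 to 0.939). Of the 8 measured genes of Col15a1-type fibroblasts around vessels 2 were 1.5-fold higher, Gas6 and the enkephalin precursor gene Penk, the latter on 15 and 8 UMIs, and the median was 0.28, while none was at equal cluster makeup.

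Among the 20 most counted genes of the 209 cells the nuclear RNA Malat1 came first, at 38543 CPM without and 29509 CPM with Dpp4, a ratio of 1.31 (1.29 to 1.32). The mitochondrial transcripts among them were also higher, with mt-Co3 at 1.23 (1.20 to 1.27) and mt-Cytb at 1.32 (1.26 to 1.38). The cytoskeletal gene Actb was lower, at 0.827 (0.800 to 0.855).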
